A study of Mus musculus with 7 samples.

Results

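The microglia and macrophage genes described here are 37 named transcripts, taken by symbol from the 25655 genes of a retinal count table. All 37 were found. They were picked as markers of microglia and macrophages, of their resting and activated states, and of the ligands and transcription factors that act on these cells. The libraries came from whole retina of wildtype C57BL/6 mice, collected 2 days after crush of the optic nerve. Retinas had been given an AAV2 vector for Tppp3 overexpression (Tppp3 AAV2, 3 libraries) or a control AAV2 vector (3 libraries), the control being named for the CMV promoter. AAV2 is an adeno-associated virus that is widely used to reach retinal ganglion cells, and Tppp3 encodes a protein that promotes tubulin polymerisation. All groups carried the injury and a vector, so the comparison addresses what Tppp3 overexpression added to an injured, vector-treated retina, and an uninjured retina was not part of it.

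Microglia are the resident macrophages of the retina. They depend on signalling through the receptor CSF1R, whose ligands are colony-stimulating factor 1 and interleukin 34, and neurons hold them in a surveying state in part through the chemokine CX3CL1 and its receptor CX3CR1. After axon injury or neuronal loss, microglia lower their homeostatic transcripts and raise a set of phagocytic and lipid-handling transcripts, a switch that in the brain involves the receptor TREM2 and its adaptor TYROBP. Myeloid identity is set by the transcription factor PU.1, encoded by Spi1, together with IRF8 and RUNX1.

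Library totals were 19961359 to 21843892 counts with Tppp3 AAV2 and 10961443 to 16218074 counts with control AAV2, so every Tppp3 AAV2 library was deeper. Tppp3 itself was 53.7, 36.5 and 41.8 CPM (counts scaled to the TMM-adjusted library size) in Tppp3 AAV2 replicates 1, 2 and 3, against 18.7, 22.2 and 28.02 CPM in control replicates 1, 2 and 3. The groups did not overlap, and the log2 fold change was 0.94 ± 0.20 (SE) with an adjusted p of 0.639 in edgeR's test and 1.2e-05 in DESeq2's Wald test. The exact two-sided permutation p was 0.1, the smallest that 3 against 3 libraries allow. Counts from Y-linked genes were high in Tppp3 AAV2 replicate 2 and in control replicate 1 and low in the other 4 libraries. The defining microglia markers Cx3cr1, P2ry12, Tmem119, Csf1r and Aif1 were present in every library.

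No microglia or macrophage gene passed the test between the vectors. All 37 had enough counts to be tested, and 0 of 37 had an adjusted p under 0.05 in edgeR's quasi-likelihood test, where 0.0136% of all 14750 genes tested did. At an unadjusted p under 0.05 the count was also 0 of 37, against 7.23% of all genes (3.67% higher and 3.55% lower with Tppp3 AAV2), and DESeq2's Wald test passed 0 as well, against 0.103% of the genes to which it gave an adjusted p, which left out Fcrls, Cst7 and Mrc1. The smallest adjusted p of a member was 0.767, for Il34. Fold changes lay on both sides of 0, with 20 negative and 17 positive, and their median was -0.034 on the log2 scale beside 0.0030 for all genes tested. The groups failed to overlap for 1 gene of 37, Il34, which is 2.70% of the members where 13.9% of all genes tested had groups that did not overlap (6.92% higher and 7.02% lower with Tppp3 AAV2). The standard errors were wide, from 0.11 on the log2 scale for Lpl to 0.88 for Irf8. In bulk retina, fewer cells of a type and less RNA per cell cannot be told apart.

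**Figure D1:**
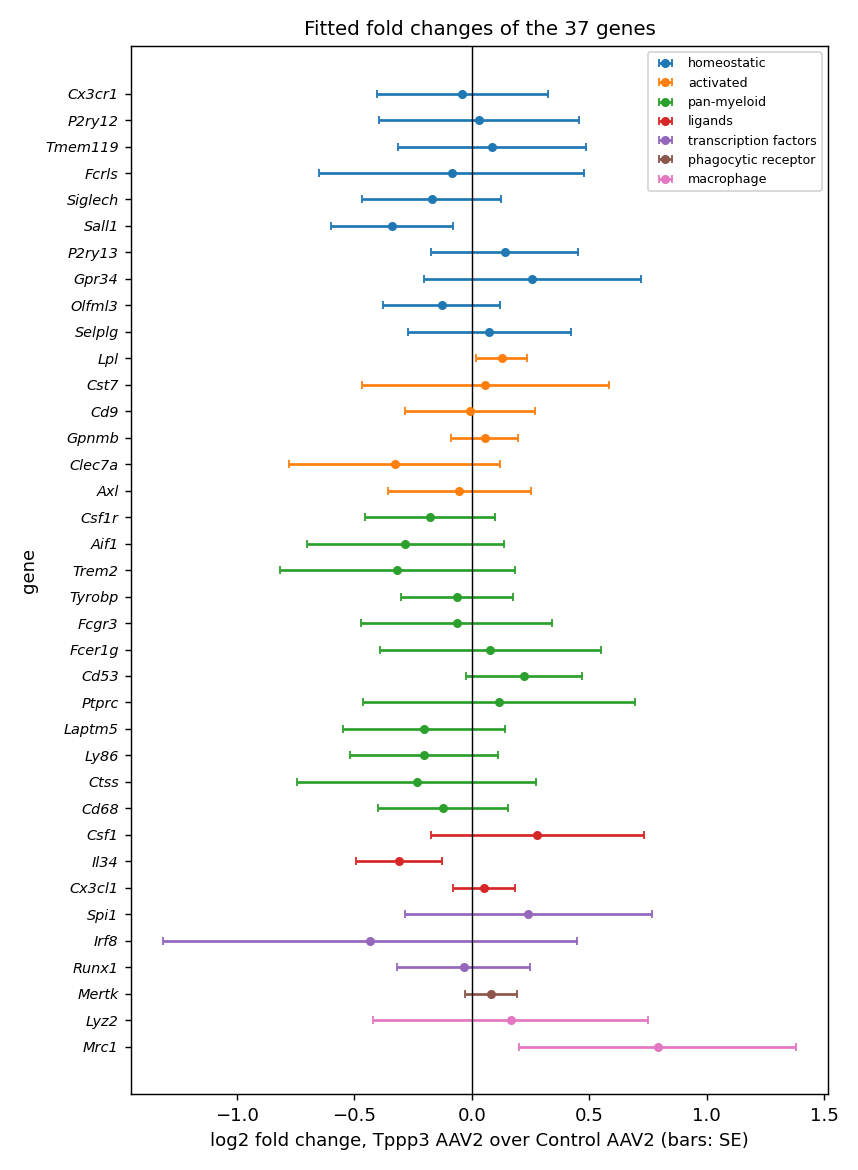
Fitted log2 fold change of each of the 37 genes, Tppp3 AAV2 over control AAV2, on the horizontal axis, with genes down the page, coloured by class, and bars giving the standard error (n = 3 libraries per group). The points scatter on both sides of 0, with Il34 at -0.31 and Mrc1 at 0.79.

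The members differed more between libraries of a group than genes at large did. The highest library was Tppp3 AAV2 replicate 2 for 19 of the 37 genes. The lowest was Tppp3 AAV2 replicate 3 for 16 genes and control replicate 1 for 11. The members' biological coefficient of variation, the spread between libraries of a group once counting error is modelled, had a median of 29.3% against 10.6% for all genes tested, and 37 of the 37 genes lay above that all-gene median. By the SD of log2 CPM within groups, 35 of the 37 lay above the all-gene median, and Lpl and Mertk lay below it. The members were not compared with genes of similar abundance. For 22 of the 37 genes, or 59.5%, the lowest pair of libraries was Tppp3 AAV2 replicate 3 and control replicate 1, a pairing that 8.33% of all genes tested showed. That pair was chosen for counting after the values had been seen. Both vector groups therefore held a library with low myeloid transcripts and a library with high ones.

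**Figure D2:**
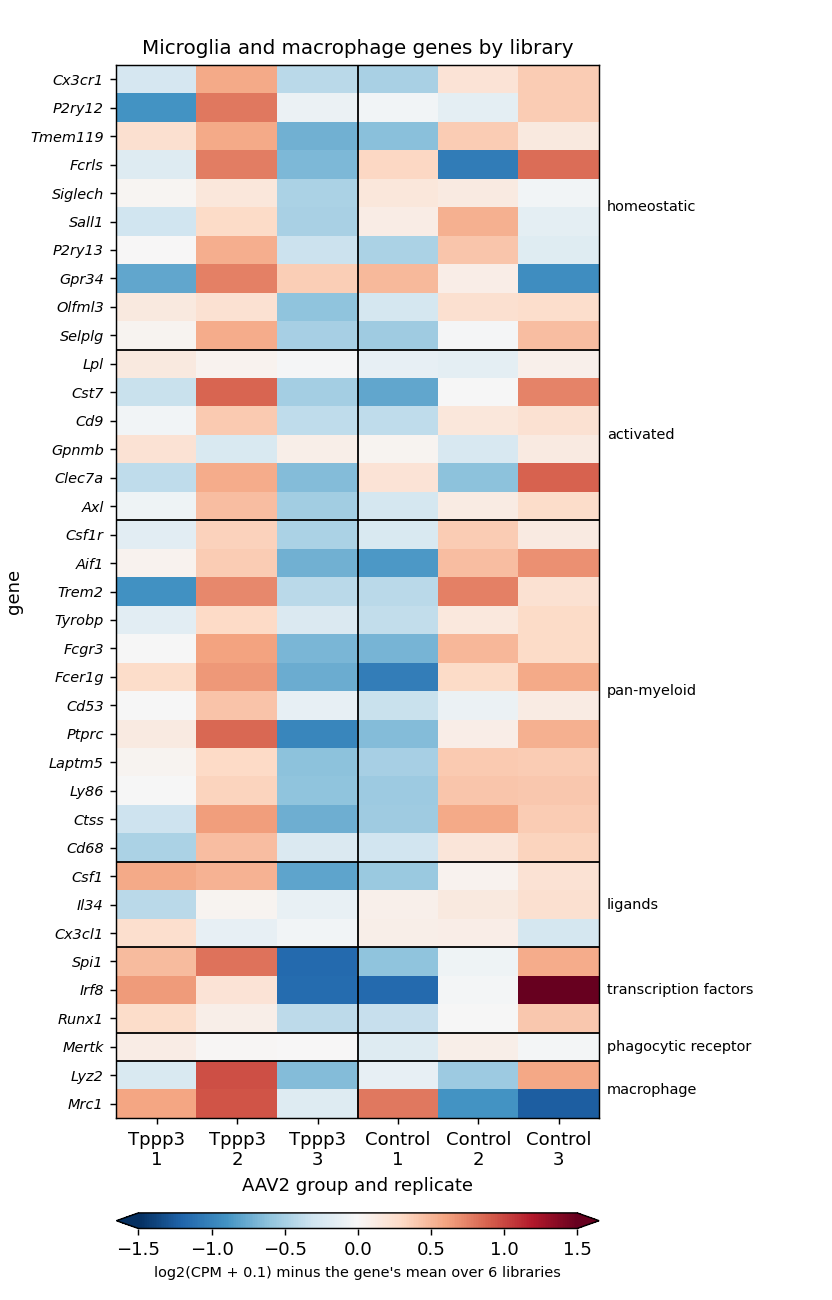
Level of each of the 37 genes (down the page, by class) in each library (across, Tppp3 AAV2 replicates 1 to 3 left of control AAV2 replicates 1 to 3), as log2(CPM + 0.1) minus the gene's mean over the 6 libraries. Tppp3 AAV2 replicate 3 and control replicate 1 are mostly blue, which means low, and Tppp3 AAV2 replicate 2 is mostly red, with Mertk and Lpl nearly white throughout.

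Markers of other cells also differed between libraries. Pigment epithelium and pigment cell markers, 13 of 13 detected, summed to 175.5, 64.2 and 168.6 CPM in Tppp3 AAV2 replicates 1, 2 and 3, against 172.6, 48.6 and 49.5 CPM in control replicates 1, 2 and 3. This sum was thus high in both libraries that were low in myeloid transcripts, and also in Tppp3 AAV2 replicate 1. Ttr was its largest part, at 94.6, 36.0 and 87.2 CPM with Tppp3 AAV2, against 83.4, 28.1 and 32.7 CPM with control AAV2. Mitf, at 9.94 to 11.5 CPM in the 6 libraries, did not follow the sum, nor did Best1, Slc45a2 and Mlana, each under 1 CPM. Astrocyte markers, 5 of 5 detected, summed to 118.3, 160.4 and 78.5 CPM with Tppp3 AAV2, against 82.7, 139.9 and 144.7 CPM with control AAV2. The library differences of this sum lay in the filament gene Gfap, which reactive Müller glia also express, at 74.4, 108.9 and 32.9 CPM with Tppp3 AAV2, against 39.6, 98.4 and 97.2 CPM with control AAV2. Its lowest libraries were Tppp3 AAV2 replicate 3 and control replicate 1, as for most members. Without Gfap the other 4 markers summed to 43.9, 51.5 and 45.6 CPM with Tppp3 AAV2, against 43.1, 41.5 and 47.4 CPM with control AAV2, and did not show that low pair. Among Müller glia markers, Slc1a3, Sox9, Vim and Crym had that low pair, while Rlbp1, Glul, Aqp4, Kcnj10, Apoe and Dkk3 did not. Vim was at 169.1, 209.0 and 126.3 CPM with Tppp3 AAV2, against 119.4, 161.2 and 205.4 CPM with control AAV2. Lens markers summed to 28.8, 4.10 and 6.31 CPM with Tppp3 AAV2, against 6.19, 8.73 and 2.80 CPM with control AAV2. The red cell, vascular, ganglion cell and rod marker sums did not have that low pair. The part of these cells in the members' values was not tested. With the pigment marker level as a covariate, the median log2 fold change of all 37 genes was 0.29 and 0 passed in edgeR's test, with 4 of 37 at an unadjusted p under 0.05, against 7.75% of all genes in that fit.

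The homeostatic class held 10 genes that mark surveying microglia. Of these, 5 had negative and 5 positive fold changes, with a median of -0.0050, and 0 passed in edgeR's test, adjusted or unadjusted. The median was -0.30 without Tppp3 AAV2 replicate 2 and 0.16 without Tppp3 AAV2 replicate 3.

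Cx3cr1, the fractalkine receptor, stood at 12.3, 21.8 and 11.1 CPM in the Tppp3 AAV2 libraries, against 10.4, 16.9 and 19.2 CPM in the control libraries (replicates 1, 2 and 3 in order, here and for all genes that follow). It averaged 15.1 ± 5.88 CPM with Tppp3 AAV2 and 15.5 ± 4.53 CPM with control AAV2 (SD, n = 3 each). The groups overlapped, with high libraries in Tppp3 AAV2 replicate 2 and control replicate 3, and the log2 fold change was -0.040 ± 0.36 (SE; adjusted p = 0.990) in edgeR's test. P2ry12, a purinergic receptor that steers microglial processes toward ATP, had 2.49, 8.25 and 4.42 CPM in the Tppp3 AAV2 libraries, against 4.60, 4.24 and 6.15 CPM in the control libraries. Within the Tppp3 AAV2 group its highest library held 3.32 times the lowest, which was replicate 1, and the control libraries all lay between them. Its log2 fold change was 0.030 ± 0.43 (SE; adjusted p = 0.992). P2ry13, a related purinergic receptor gene, had 2.90, 4.24 and 2.28 CPM in the Tppp3 AAV2 libraries, against 2.03, 3.87 and 2.53 CPM in the control libraries. The groups overlapped, and the log2 fold change was 0.14 ± 0.31 (SE; adjusted p = 0.951). In the GENCODE M21 annotation both P2ry genes overlap the Med12l gene on the other strand, and the library kit does not mark strand, so that their counts may hold reads of Med12l.

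Tmem119, a membrane protein gene used to tell microglia from other macrophages, was at 7.82, 9.83 and 3.94 CPM in the Tppp3 AAV2 libraries, against 4.24, 8.60 and 7.32 CPM in the control libraries. Its lowest libraries were Tppp3 AAV2 replicate 3 and control replicate 1, and its log2 fold change was 0.088 ± 0.40 (SE; adjusted p = 0.981). Sall1, a transcriptional regulator that keeps microglia in their resident state, was at 3.56, 5.41 and 3.13 CPM in the Tppp3 AAV2 libraries, against 4.77, 6.45 and 3.98 CPM in the control libraries. The groups overlapped, with the highest value in control replicate 2, and its log2 fold change of -0.34 ± 0.26 (SE; adjusted p = 0.814) was the lowest of the class. Its interval ran from -0.91 to 0.23 (95%). Sall1 kept a negative fold change with each library left out.

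Olfml3, a secreted olfactomedin-like protein gene, had 16.0, 16.9 and 9.45 CPM in the Tppp3 AAV2 libraries, against 11.9, 17.0 and 17.3 CPM in the control libraries. Tppp3 AAV2 replicate 3 and control replicate 1 stood below the other 4 libraries, which were close together, and the log2 fold change was -0.13 ± 0.25 (SE; adjusted p = 0.945). Selplg, which encodes the P-selectin ligand, had 8.33, 11.997 and 5.70 CPM in the Tppp3 AAV2 libraries, against 5.57, 7.99 and 11.2 CPM in the control libraries. The same pair was lowest, with Tppp3 AAV2 replicate 2 highest, and the log2 fold change was 0.076 ± 0.35 (SE; adjusted p = 0.981).

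The remaining 3 homeostatic genes had few counts. Siglech, a sialic acid-binding lectin gene, had 1.98, 2.21 and 1.38 CPM in the Tppp3 AAV2 libraries, against 2.21, 2.15 and 1.90 CPM in the control libraries, from 21 to 49 counts per library. It was the steadiest of the class, with a highest-to-lowest ratio of 1.61, and its log2 fold change was -0.17 ± 0.30 (SE; adjusted p = 0.933). Gpr34, a lysophosphatidylserine receptor gene that overlaps Cask on the other strand, had 1.12, 3.43 and 2.61 CPM in the Tppp3 AAV2 libraries, against 2.83, 2.15 and 0.994 CPM in the control libraries. Its lowest libraries were control replicate 3 and Tppp3 AAV2 replicate 1, unlike most of the class, and its log2 fold change was 0.26 ± 0.46 (SE; adjusted p = 0.934). Fcrls, an Fc receptor-like scavenger receptor gene, had 0.965, 1.98 and 0.665 CPM in the Tppp3 AAV2 libraries, against 1.41, 0.492 and 2.08 CPM in the control libraries, from 8 to 44 counts. The control libraries alone spanned a 4.23-fold range, and the log2 fold change was -0.085 ± 0.56 (SE; adjusted p = 0.987).

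The activated class held 6 genes that rise in phagocytic, lipid-handling microglia. Their fold changes were negative for 3 and positive for 3, with a median of 0.024, and 0 passed in edgeR's test, adjusted or unadjusted. The median was -0.29 without Tppp3 AAV2 replicate 2 and 0.16 without Tppp3 AAV2 replicate 3.

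Among them, Cst7 and Clec7a are largely confined to myeloid cells. Cst7, the gene of the protease inhibitor cystatin F, had 0.762, 1.89 and 0.665 CPM in the Tppp3 AAV2 libraries, against 0.530, 0.983 and 1.72 CPM in the control libraries, from counts of 15, 42 and 14 in the Tppp3 AAV2 libraries, against 6, 16 and 19 in the control libraries. Its highest library was Tppp3 AAV2 replicate 2 and its lowest control replicate 1, where 6 counts gave 0.530 CPM with an exact 95% Poisson interval of 0.195 to 1.15 CPM, for counting error alone. The log2 fold change was 0.058 ± 0.52 (SE; adjusted p = 0.990). Clec7a, which encodes the beta-glucan receptor dectin-1, had 1.68, 3.29 and 1.38 CPM in the Tppp3 AAV2 libraries, against 2.56, 1.41 and 4.16 CPM in the control libraries. Control replicate 3 was highest and Tppp3 AAV2 replicate 3 lowest, and the log2 fold change of -0.33 ± 0.45 (SE; adjusted p = 0.913) turned to 0.12 without control replicate 3.

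The other 4 activated genes are also expressed by retinal glia, pigment cells, vessels or neurons. Cd9, a tetraspanin gene, had 54.1, 72.7 and 42.6 CPM in the Tppp3 AAV2 libraries, against 42.7, 62.5 and 64.8 CPM in the control libraries. It had the low pair of libraries seen in most members, with a log2 fold change of -0.0069 ± 0.27 (SE; adjusted p = 0.997). Axl, a receptor tyrosine kinase gene for the clearance of dying cells, had 31.3, 45.2 and 22.8 CPM in the Tppp3 AAV2 libraries, against 27.4, 35.8 and 39.9 CPM in the control libraries. It followed the same order as Cd9, with a log2 fold change of -0.052 ± 0.31 (SE; adjusted p = 0.985). Lpl, the gene of lipoprotein lipase, had 15.9, 14.9 and 14.2 CPM in the Tppp3 AAV2 libraries, against 13.2, 12.9 and 15.2 CPM in the control libraries. Its highest-to-lowest ratio was 1.23, among the narrowest of the 37, and its log2 fold change was 0.13 ± 0.11 (SE; adjusted p = 0.838), with a 95% interval of -0.11 to 0.37. Gpnmb, a glycoprotein gene of phagocytes that pigment cells also express, had 17.5, 12.8 and 15.9 CPM in the Tppp3 AAV2 libraries, against 15.5, 12.7 and 16.4 CPM in the control libraries. The lowest libraries were Tppp3 AAV2 replicate 2 and control replicate 2, and the log2 fold change was 0.056 ± 0.14 (SE; adjusted p = 0.959). Tppp3 AAV2 replicate 2 was not in the lowest pair for Cst7 or Clec7a, while control replicate 2 was for Clec7a.

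Homeostatic and activated levels were then compared within each library. The mean log2 CPM of the homeostatic genes minus that of the activated genes was -1.25, -0.95 and -1.19 in Tppp3 AAV2 replicates 1, 2 and 3, against -1.05, -0.93 and -1.40 in control replicates 1, 2 and 3. It averaged -1.13 ± 0.16 with Tppp3 AAV2 and -1.13 ± 0.24 with control AAV2 (SD, n = 3 each), a difference of -0.0043, smaller than the spread within either group. The highest and the lowest libraries were both controls. Over the 6 libraries the homeostatic mean ran between 1.81 in Tppp3 AAV2 replicate 3 and 2.72 in Tppp3 AAV2 replicate 2 on the log2 CPM scale. The activated mean ran between 3.0004 in Tppp3 AAV2 replicate 3 and 3.72 in control replicate 3. Both ranges were wider than that of the difference between the classes.

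Control replicate 3 was lowest and control replicate 2 highest with a narrower choice of activated genes too. With Cst7 and Clec7a alone as the activated genes, the contrast was 1.68, 1.33 and 1.70 in Tppp3 AAV2 replicates 1, 2 and 3, against 1.67, 1.90 and 0.83 in control replicates 1, 2 and 3. In control replicate 3 the mean of Cst7 and Clec7a was 1.49 on the log2 CPM scale. The groups averaged 1.57 ± 0.20 with Tppp3 AAV2 and 1.47 ± 0.56 with control AAV2 (SD, n = 3 each), a difference of 0.10. With Trem2, Tyrobp and Cd68 added to the activated genes, the difference was 0.050. Control replicate 3 was again lowest with this wider choice, at -0.954. The highest were then Tppp3 AAV2 replicate 2 at -0.593 and control replicate 1 at -0.594, with control replicate 2 at -0.680. With the median over members in place of the mean it was -0.28, larger than the spread of the main contrast within groups. No test was made on these summed measures.

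**Figure D3:**
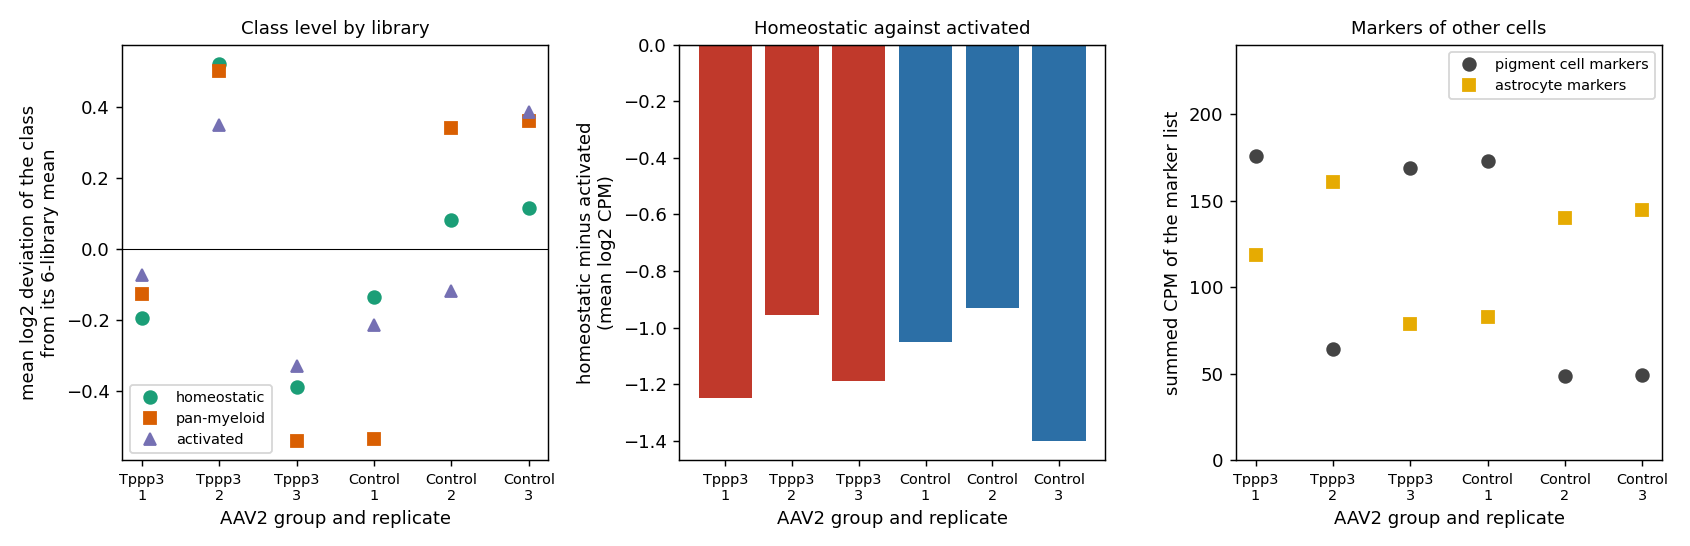
Left, mean log2 deviation of the homeostatic, pan-myeloid and activated genes from their mean over the 6 libraries, by library. Middle, mean log2 CPM of homeostatic minus activated genes, which lies between -1.40 and -0.93. Right, summed CPM of pigment cell and astrocyte markers. Tppp3 AAV2 replicates stand left of control replicates, and the pan-myeloid mean is lowest in Tppp3 AAV2 replicate 3 and control replicate 1.

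The 12 pan-myeloid genes, which microglia and other macrophages share, also showed the library pattern. Tppp3 AAV2 replicate 3 was among the lowest pair of libraries for 11 of the 12 genes, and so was control replicate 1. The class mean deviated from its average over the 6 libraries by -0.13, 0.50 and -0.54 on the log2 scale in Tppp3 AAV2 replicates 1, 2 and 3, and by -0.53, 0.34 and 0.36 in control replicates 1, 2 and 3. Of the fold changes between the vectors, 9 were negative and 3 positive, with a median of -0.15, and 0 passed in edgeR's test, adjusted or unadjusted. Where 49.1% of all genes tested had a negative fold change, 75.0% of this class did. The median was -0.44 without Tppp3 AAV2 replicate 2 and 0.018 without Tppp3 AAV2 replicate 3, and it was 0.31 with the pigment marker level as a covariate.

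Csf1r, the receptor on which microglial survival depends, had 33.9, 47.9 and 27.2 CPM in the Tppp3 AAV2 libraries, against 32.3, 49.2 and 41.5 CPM in the control libraries. It averaged 36.3 ± 10.6 CPM with Tppp3 AAV2 and 41.0 ± 8.49 CPM with control AAV2 (SD, n = 3 each), the groups overlapped, and the log2 fold change was -0.18 ± 0.27 (SE; adjusted p = 0.927). The interval ran from -0.89 to 0.54 (95%) and so held both lower and higher levels with Tppp3 AAV2. The Hmgxb3 gene overlaps Csf1r on the other strand, as Wdr48 does Cx3cr1, so that counts of these members may hold reads of the overlapping gene. Whether the exons of both genes overlap was not checked. Aif1, which encodes the calcium-binding protein IBA1, had 2.74, 3.47 and 1.57 CPM in the Tppp3 AAV2 libraries, against 1.41, 3.69 and 4.34 CPM in the control libraries. Each group had a low library, and the log2 fold change was -0.28 ± 0.42 (SE; adjusted p = 0.922). Trem2, the receptor gene for lipids and apoptotic debris, had 2.08, 6.67 and 2.99 CPM in the Tppp3 AAV2 libraries, against 3.01, 6.82 and 4.70 CPM in the control libraries. Tppp3 AAV2 replicate 2 and control replicate 2 were the high libraries, and the log2 fold change was -0.32 ± 0.50 (SE; adjusted p = 0.928).

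Tyrobp, the signalling adaptor that pairs with TREM2, had 3.81, 5.28 and 3.66 CPM in the Tppp3 AAV2 libraries, against 3.27, 4.79 and 5.24 CPM in the control libraries. It varied less than Trem2, with a highest-to-lowest ratio of 1.61 against 3.28 for Trem2, and its log2 fold change was -0.064 ± 0.24 (SE; adjusted p = 0.975). Ctss, the gene of the lysosomal protease cathepsin S, had 41.7, 79.9 and 31.0 CPM in the Tppp3 AAV2 libraries, against 35.7, 76.3 and 67.0 CPM in the control libraries. These rest on 404 to 1772 counts per library, the most of the class, and span a 2.58-fold range. Its log2 fold change was -0.23 ± 0.51 (SE; adjusted p = 0.953). Cd68, a lysosomal glycoprotein gene, had 3.00, 5.86 and 3.61 CPM in the Tppp3 AAV2 libraries, against 3.45, 4.79 and 5.33 CPM in the control libraries. The groups overlapped, with a log2 fold change of -0.12 ± 0.28 (SE; adjusted p = 0.953). Ly86, whose product MD-1 partners a Toll-like receptor homologue, had 6.10, 7.76 and 3.99 CPM in the Tppp3 AAV2 libraries, against 4.15, 8.17 and 8.13 CPM in the control libraries. Its log2 fold change was -0.20 ± 0.32 (SE; adjusted p = 0.925), and Tppp3 AAV2 replicate 3 and control replicate 1 were again lowest.

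The other 5 pan-myeloid genes had log2 fold changes of -0.20 for Laptm5, a lysosomal membrane protein gene, -0.063 for the Fc receptor gene Fcgr3, 0.080 for the Fc receptor gamma chain gene Fcer1g, 0.22 for the leukocyte tetraspanin gene Cd53 and 0.12 for Ptprc, which encodes CD45. Ptprc had the widest range between libraries of this class, 3.62-fold, with 14.3 CPM in Tppp3 AAV2 replicate 2 and 3.94 CPM in Tppp3 AAV2 replicate 3. The level of Fcgr3 is uncertain, because how reads shared with its near copy Fcgr2b were handled is not stated.

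PU.1 is a shared regulator of myeloid genes, so upstream sequence was searched for a core PU.1 motif, GAGGAAG, on both strands. The search covered the 250 bases before each annotated start in RefSeq's promoter table (GRCm38.p6), which held 29 of the 37 genes. The motif was present for 8 of these 29 genes, or 27.6%, against 3244 of 27025 gene symbols in the table, or 12%. A symbol counted if any of its windows held the motif, and the symbols were not matched for number of starts, gene type or expression. The 8 were Fcrls, P2ry13, Axl, Trem2, Fcgr3, Laptm5, Cx3cl1 and Mrc1, which include Cx3cl1, a gene of neurons. A composite of PU.1 and IRF letters, GGAA followed after 2 bases by GAAA, was present for 1 of the 29 genes, Clec7a, or 3.45%, against 2.68% of all symbols. A match describes letters only. Among the genes with the core motif, P2ry13, Axl, Fcgr3 and Laptm5 had the low pair of libraries seen in most members. Fcrls, Trem2, Cx3cl1 and Mrc1 did not. A link between the motif and the library pattern was not tested. The windows of the 4 homeostatic or pan-myeloid genes with a match and a single start are shown 5′ to 3′ on the gene's strand, with the motif or its reverse complement in capitals.
P2ry13, chr3:59210883-59211132, minus strand: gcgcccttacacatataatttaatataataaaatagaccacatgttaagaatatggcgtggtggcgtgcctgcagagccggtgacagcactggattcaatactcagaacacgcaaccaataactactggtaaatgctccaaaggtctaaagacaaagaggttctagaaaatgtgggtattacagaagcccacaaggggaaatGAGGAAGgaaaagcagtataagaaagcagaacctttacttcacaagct
Fcrls, chr3:87263525-87263774, minus strand: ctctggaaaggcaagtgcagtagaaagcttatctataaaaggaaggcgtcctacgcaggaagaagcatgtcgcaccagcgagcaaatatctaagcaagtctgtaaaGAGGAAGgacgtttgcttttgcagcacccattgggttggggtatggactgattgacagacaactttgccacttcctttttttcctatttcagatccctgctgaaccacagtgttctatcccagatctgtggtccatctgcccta
Trem2, chr17:48346151-48346400, plus strand: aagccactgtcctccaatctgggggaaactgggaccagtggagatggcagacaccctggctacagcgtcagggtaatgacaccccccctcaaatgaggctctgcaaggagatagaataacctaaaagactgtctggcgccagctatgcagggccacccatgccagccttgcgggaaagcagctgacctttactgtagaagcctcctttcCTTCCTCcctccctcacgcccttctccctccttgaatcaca
Laptm5, chr4:130913066-130913315, plus strand: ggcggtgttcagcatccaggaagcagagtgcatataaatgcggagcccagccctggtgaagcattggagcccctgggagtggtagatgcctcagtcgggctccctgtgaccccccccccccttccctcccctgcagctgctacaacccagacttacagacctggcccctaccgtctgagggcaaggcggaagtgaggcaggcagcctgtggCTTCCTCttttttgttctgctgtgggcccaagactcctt

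In P2ry13 the motif began 48 bases before the start and lay on the gene's strand, as it did in Fcrls at 144 bases. In Trem2 and Laptm5 it lay on the other strand and began 41 and 39 bases before the start. P2ry13 and Fcrls are homeostatic genes and Trem2 and Laptm5 pan-myeloid ones. Their fold changes in the data were 0.14, -0.085, -0.32 and -0.20 on the log2 scale, positive for P2ry13 and negative for the other 3.

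Of the myeloid transcription factor genes, Irf8 and Spi1 varied widely between libraries and Runx1 less, and the lowest pair for all 3 was Tppp3 AAV2 replicate 3 and control replicate 1. Irf8, which microglia need for their development and reactive state and which lymphoid cells also express, had 20.02, 14.8 and 5.70 CPM in the Tppp3 AAV2 libraries, against 5.66, 12.6 and 36.8 CPM in the control libraries. Its range of 6.50-fold was the widest of the 37 genes, with control replicate 3 highest and control replicate 1 and Tppp3 AAV2 replicate 3 lowest. It averaged 13.5 ± 7.25 CPM with Tppp3 AAV2 and 18.3 ± 16.3 CPM with control AAV2 (SD, n = 3 each), and the log2 fold change was -0.43 ± 0.88 (SE; adjusted p = 0.948), with a 95% interval of -2.84 to 1.97. Without control replicate 3 the log2 fold change of Irf8 was 0.54. Spi1, the gene of PU.1, had 2.74, 3.47 and 0.807 CPM in the Tppp3 AAV2 libraries, against 1.24, 1.84 and 2.89 CPM in the control libraries. These come from 14 to 77 counts per library, Tppp3 AAV2 replicate 3 and control replicate 1 were lowest, and the log2 fold change was 0.24 ± 0.53 (SE; adjusted p = 0.950). Runx1, a transcription factor gene of blood and myeloid lineages, had 3.45, 3.02 and 2.14 CPM in the Tppp3 AAV2 libraries, against 2.21, 2.83 and 3.80 CPM in the control libraries. Its range was narrower, 1.78-fold, and its log2 fold change was -0.034 ± 0.28 (SE; adjusted p = 0.989).

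The 3 ligand genes behaved unlike each other. Il34, which neurons make and which acts through CSF1R, had 3.96, 5.41 and 4.84 CPM in the Tppp3 AAV2 libraries, against 5.57, 5.84 and 6.24 CPM in the control libraries. Every Tppp3 AAV2 library lay below every control library, the only member for which this was so. The means were 4.74 ± 0.730 CPM with Tppp3 AAV2 and 5.88 ± 0.335 CPM with control AAV2 (SD, n = 3 each), and the log2 fold change was -0.31 ± 0.18 (SE; adjusted p = 0.767), with an unadjusted p of 0.117. Its interval ran from -0.71 to 0.091 (95%), and the value stayed between -0.42 and -0.20 with each library left out. The counts behind it were 78, 120 and 102 in the Tppp3 AAV2 libraries, against 63, 95 and 69 in the control libraries, so that the difference rests on few reads. Such a lack of overlap, lower with Tppp3 AAV2, was seen in 7.02% of all genes tested.

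Csf1, the other ligand of CSF1R, had 21.7, 21.0 and 8.40 CPM in the Tppp3 AAV2 libraries, against 9.90, 15.1 and 17.0 CPM in the control libraries. The Tppp3 AAV2 group held both the highest and the lowest libraries, and the log2 fold change was 0.28 ± 0.45 (SE; adjusted p = 0.931). Cx3cl1, the neuronal ligand of CX3CR1, had 86.8, 66.7 and 70.8 CPM in the Tppp3 AAV2 libraries, against 77.3, 77.8 and 60.7 CPM in the control libraries. It was steady next to its receptor, with a highest-to-lowest ratio of 1.43 against 2.09 for Cx3cr1, and its lowest libraries were control replicate 3 and Tppp3 AAV2 replicate 2. The log2 fold change was 0.052 ± 0.13 (SE; adjusted p = 0.960).

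**Figure D4:**
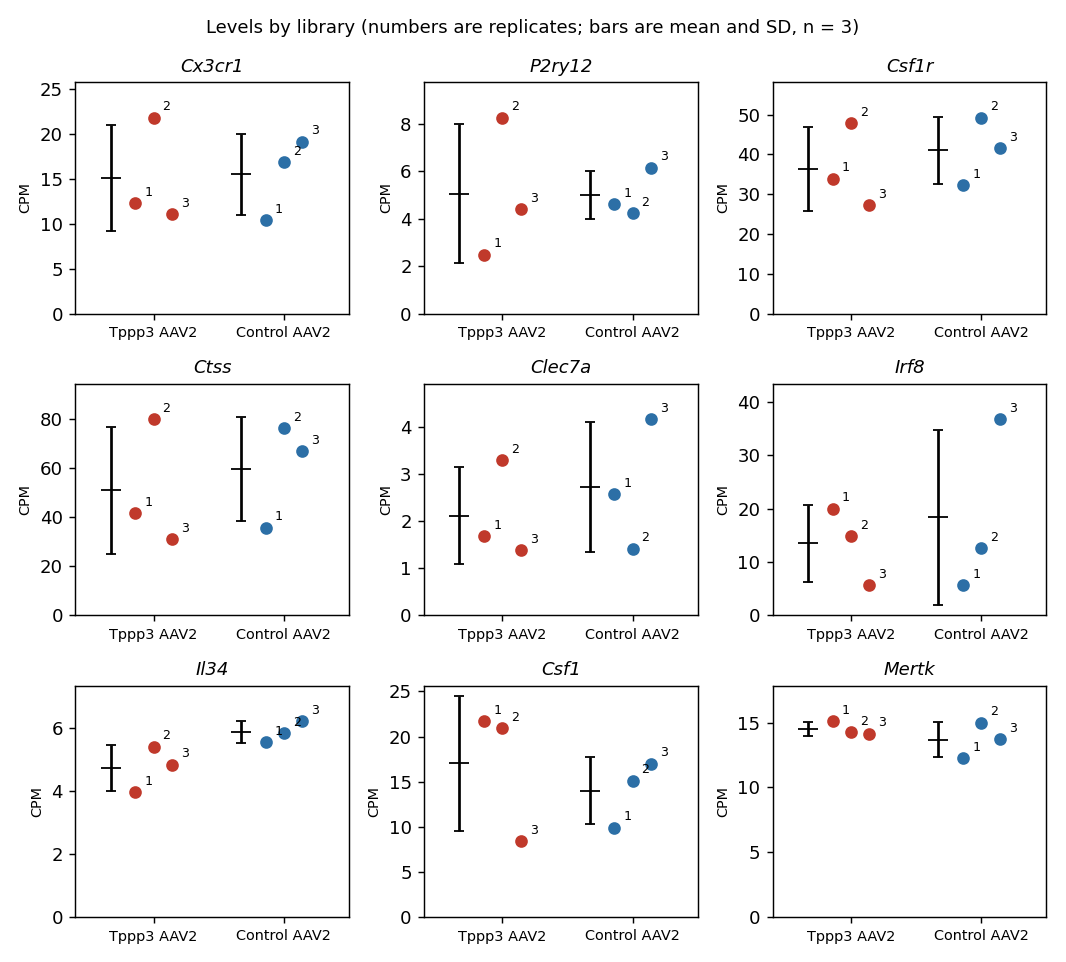
CPM of 9 of the genes in each library, Tppp3 AAV2 left of control AAV2, with replicate numbers beside the points and bars for the mean and SD (n = 3 per group). Il34 is the gene whose groups do not overlap, Irf8 the one with the widest spread and Mertk the steady one.

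Mertk, a receptor kinase gene that retinal pigment epithelium, glia and macrophages use to engulf debris, had 15.1, 14.3 and 14.1 CPM in the Tppp3 AAV2 libraries, against 12.3, 15.0 and 13.7 CPM in the control libraries. All 6 libraries lay within a 1.23-fold range, and the log2 fold change was 0.082 ± 0.11 (SE; adjusted p = 0.910), with a 95% interval of -0.16 to 0.32. Axl, a receptor of the same family, spanned a 1.98-fold range.

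Lyz2 and Mrc1 mark macrophages outside the resting microglial state. Lyz2, the lysozyme gene of macrophages and neutrophils, had 14.3, 32.7 and 10.6 CPM in the Tppp3 AAV2 libraries, against 15.4, 11.5 and 25.1 CPM in the control libraries. Tppp3 AAV2 replicate 2 and control replicate 3 were high, and the log2 fold change was 0.17 ± 0.59 (SE; adjusted p = 0.975). The level is uncertain where reads are shared with its near copy Lyz1. Mrc1, the mannose receptor gene of perivascular and other border macrophages, had 1.22, 1.58 and 0.665 CPM in the Tppp3 AAV2 libraries, against 1.41, 0.369 and 0.271 CPM in the control libraries. Its counts were 24, 35 and 14 in the Tppp3 AAV2 libraries, against 16, 6 and 3 in the control libraries, and control replicate 3, with 3 counts, has an exact 95% Poisson interval of 0.0559 to 0.792 CPM. Its log2 fold change of 0.79 ± 0.59 (SE; adjusted p = 0.810) was the highest of the 37 genes, yet control replicate 1 lay above Tppp3 AAV2 replicates 1 and 3. It was 1.80 without control replicate 1, 0.45 without control replicate 2 and 0.45 without control replicate 3.

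Markers of infiltrating and border cells were present at differing levels. Of 11 border macrophage markers, Pf4 was at 0 to 0.0508 CPM with Tppp3 AAV2 and 0 to 0.0884 CPM with control AAV2. Cd163 was at 0.0508, 0.451 and 0.0950 CPM with Tppp3 AAV2, against 0.0884, 0 and 0 CPM with control AAV2. Pf4 and Cd163 had only 2 and 14 counts in total over the 6 libraries, and Tppp3 AAV2 replicate 2 alone set the upper value of Cd163. The list summed to 18.9 to 26.3 CPM with Tppp3 AAV2 and 18.2 to 20.2 CPM with control AAV2, of which Lyve1, which lymphatic endothelium also expresses, gave 10.8 CPM or more in each library. Blood myeloid markers summed to 27.2 to 34.6 CPM with Tppp3 AAV2 and 22.6 to 45.01 CPM with control AAV2. Of these 13 markers, the haptoglobin gene Hp was the most abundant, at 12.5, 16.1 and 17.4 CPM with Tppp3 AAV2, against 12.9, 11.2 and 20.97 CPM with control AAV2. The monocyte gene Ly6c2 was at 4.67, 3.16 and 0.902 CPM with Tppp3 AAV2, against 1.41, 2.83 and 3.43 CPM with control AAV2. Plac8 was highest in Tppp3 AAV2 replicate 1, at 3.96 CPM, and the neutrophil genes Retnlg and Mpo were at 0 counts in all 6 libraries. Other genes in the list that neutrophils express, though not necessarily they alone, were detected. Csf3r was at 1.63, 3.74 and 1.66 CPM with Tppp3 AAV2, against 2.03, 3.81 and 3.98 CPM with control AAV2. S100a8, S100a9 and Ly6g had 12, 17 and 1 counts in total over the 6 libraries. Ccr2, the chemokine receptor gene of monocytes, was at 3.56, 1.98 and 1.47 CPM with Tppp3 AAV2, against 1.06, 1.54 and 4.16 CPM with control AAV2. Its highest library, control replicate 3, was also the highest for Irf8 and Clec7a. The 10 lymphocyte markers summed to 2.29 to 9.65 CPM with Tppp3 AAV2 and 2.56 to 5.78 CPM with control AAV2, with the maximum in Tppp3 AAV2 replicate 2, which was also the highest library for Ptprc. The part of these cells in the members' values was not tested.

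Among other genes of the same states and pathways, too, 0 passed in edgeR's test. The lowest pair of libraries was Tppp3 AAV2 replicate 3 and control replicate 1 for 6 of 23, 8 of 21 and 6 of 18 genes tested in the lists that follow, in their order. Of 24 further homeostatic microglia genes, 23 were tested and 0 passed in edgeR's test, with 14 negative fold changes, a median of -0.055 and 0 at an unadjusted p under 0.05. Those of smallest p were the integrin gene Itgb5 at -0.12, the transcription factor gene Maf at 0.15 and the inositol phosphatase gene Inpp5d at -0.29 on the log2 scale.

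Of 22 further activated-state genes, 21 were tested and 0 passed in edgeR's test, while 2 were lower and 0 higher at an unadjusted p under 0.05, beside 3.55% and 3.67% of all genes, with a median of -0.033. Spp1, the osteopontin gene, which ganglion cells also express, had 21.7, 19.9 and 24.0 CPM in the Tppp3 AAV2 libraries, against 33.1, 28.6 and 29.1 CPM in the control libraries. All 3 Tppp3 AAV2 libraries were below all controls, with a log2 fold change of -0.47 ± 0.10 (SE; adjusted p = 0.550). Lgals3, the galectin-3 gene of phagocytes, glia and epithelia, had 5.94, 6.00 and 4.51 CPM in the Tppp3 AAV2 libraries, against 8.75, 6.21 and 9.58 CPM in the control libraries. Here too the groups did not overlap, with a log2 fold change of -0.57 ± 0.20 (SE; adjusted p = 0.648). Of the 21 genes tested in this list, the groups failed to overlap for 2, Spp1 and Lgals3. Among all genes tested, 13.9% had groups that did not overlap, and 7.02% had such groups with lower values with Tppp3 AAV2. Neither had its lowest pair of libraries in Tppp3 AAV2 replicate 3 and control replicate 1. Ch25h, a cholesterol hydroxylase gene, stood at 1.20 ± 0.71 (SE) and Ank, a phosphate transporter gene, at -0.076 on the log2 scale.

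Of 18 genes of CSF1 receptor signalling, 3 of them members already described, 18 were tested and 0 passed in edgeR's test. At an unadjusted p under 0.05 in this test, 1 was lower and 0 higher, beside 3.55% and 3.67% of all genes. The median log2 fold change was -0.10. The groups failed to overlap for 4 of the 18, with Il34, Plcg2 and Cblb lower and Gab2 higher, beside 13.9% of all genes tested. Plcg2, a phospholipase gene downstream of CSF1R and TREM2, had 7.47, 7.31 and 4.80 CPM in the Tppp3 AAV2 libraries, against 8.13, 8.91 and 12.8 CPM in the control libraries. Every Tppp3 AAV2 library was below every control library, with a log2 fold change of -0.61 ± 0.22 (SE; adjusted p = 0.648). Ptprz1, a phosphatase gene of glia whose product also binds IL-34, was at 0.20 on the log2 scale, the adaptor gene Grb2 at 0.14 and the syndecan gene Sdc1 at -0.41.

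Levels were compared between genes per kilobase of merged exons in GENCODE M21 (GRCm38). Cd9 was the highest of the 37, at 46.0 ± 12.4 CPM per kilobase with Tppp3 AAV2 and 46.1 ± 9.90 with control AAV2 (SD, n = 3 each), and Ctss followed at 37.5 ± 18.9 CPM per kilobase with Tppp3 AAV2 and 43.9 ± 15.7 with control AAV2. Their SDs overlap widely, so the order of this pair is not settled. Cx3cl1 came next, at 21.2 ± 3.01 CPM per kilobase with Tppp3 AAV2 and 20.4 ± 2.75 with control AAV2, well above its receptor Cx3cr1 at 3.35 ± 1.30 CPM per kilobase with Tppp3 AAV2 and 3.44 ± 1.01 with control AAV2. Csf1r stood at 7.44 ± 2.16 CPM per kilobase with Tppp3 AAV2 and 8.39 ± 1.74 with control AAV2, above both of its ligands, with Csf1 at 3.61 ± 1.59 CPM per kilobase with Tppp3 AAV2 and 2.97 ± 0.778 with control AAV2 and Il34 at 2.59 ± 0.400 CPM per kilobase with Tppp3 AAV2 and 3.22 ± 0.184 with control AAV2. The ligands' values overlap within their SDs with Tppp3 AAV2 and with control AAV2. At the low end were Fcrls, Runx1 and Mrc1, the last at 0.215 ± 0.0857 CPM per kilobase with Tppp3 AAV2 and 0.127 ± 0.118 with control AAV2.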

How the data were processed

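The values used are the unnormalised counts, 1 row a gene symbol, that the authors deposited, from poly(A)-selected retinal RNA and a kit that does not mark strand, per the labels' protocols. The submitters' processing notes name the build GRCm39 (mm39). The aligner, counter and annotation were not given in the sources used here. A column was used where its name matched a sample title, which gave 6 libraries, and 1 other column, headed as 1 more Tppp3 overexpression library, was not used because no sample title matches it. The labels also list control replicate 4, which was not analysed here. The treatment protocol, like the column headings, gives the Tppp3 AAV2 group 1 retina more than the control group, and the labels give the reverse. A mislabelled sample was not tested for. Nothing says that the libraries come from separate animals, so p-values measure the spread between these libraries.

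Libraries were scaled by TMM, genes filtered by edgeR's expression filter, and groups compared over all 14750 genes with edgeR 4.0.16's quasi-likelihood F test (robust, two-sided, Benjamini-Hochberg, threshold 0.05) in R 4.3.3, tested on simulated data. Intervals use each gene's moderated degrees of freedom. Class means use log2 CPM with a prior count of 2. DESeq2 1.42.0, limma 3.58.1, other filters, thinning, covariates and left-out libraries were alternatives. Figures used matplotlib 3.10.9. The members and lists were chosen with earlier results of these data known. Every member was named, and of each further list the 4 non-members of smallest p, apart from a gene that is not reported here. Marker and pathway lists are named where used.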

Additional observations from a re-analysis of the deposited data

How the results depend on the processing

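Of the 37 genes, 0 passed under any alternative, and the smallest adjusted p of a member was 0.492, for Trem2 without Tppp3 AAV2 replicate 2. Over all genes, 2 passed in the main edgeR test, 6 with no filter, 14 with DESeq2's Wald test, 1 with the replicate block, 0 with limma's voom with quality weights (1250 at an unadjusted p under 0.05), 0 with sex, read from Y-linked counts, as a covariate in edgeR (988 unadjusted) and 0 to 3 with single libraries left out. Tppp3 passed with DESeq2 (log2 fold change 0.94, adjusted p = 1.2e-05). The contrast of homeostatic with activated genes was -0.28 with the median over members. The medians of the homeostatic, activated and pan-myeloid genes moved by less than the spread between libraries in each alternative run. They ran from -0.30 to 0.29 for the homeostatic, -0.29 to 0.21 for the activated and -0.44 to 0.31 for the pan-myeloid genes. That spread, the SD within groups of the class mean on the log2 scale, was 0.353, 0.333 and 0.518 in the same order. Medians of the pan-myeloid genes and of all 37 were added after seeing the data.

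Most members' log2 fold changes were smaller than their standard errors. With voom the sign turned for P2ry12 (-0.15), Tmem119 (-0.15), Fcrls (0.023), P2ry13 (-0.018), Selplg (-0.040), Cst7 (-0.14), Fcer1g (-0.10), Ptprc (-0.17) and Spi1 (-0.10). After thinning to equal depth it turned for Cx3cr1 (0.0050), P2ry12 (-0.047), Tyrobp (0.038), Fcgr3 (0.088), Cd68 (0.019) and Runx1 (0.026). The replicate block turned P2ry12 to -0.092 and no other member. Signs were not read out gene by gene in the fits with a pigment or sex covariate. The median of all 37 genes was 0.29 with the pigment marker level and -0.065 with sex. Same-numbered libraries did not deviate together (correlations of -0.029, 0.051 and -0.26 over 14750 genes, with 1 of the 6 libraries closest to its own number), so the numbers were not taken to pair the samples. With single libraries left out, the sign turned for 28 genes, over ranges of -0.41 to 0.14 for Cx3cr1, -0.52 to 0.35 for P2ry12, -0.21 to 0.38 for Tmem119, -0.65 to 0.40 for Fcrls, -0.32 to 0.0043 for Siglech, -0.14 to 0.46 for P2ry13, -0.10 to 0.59 for Gpr34, -0.28 to 0.091 for Olfml3, -0.23 to 0.35 for Selplg, -0.58 to 0.51 for Cst7, -0.23 to 0.16 for Cd9, -0.052 to 0.17 for Gpnmb, -0.80 to 0.12 for Clec7a, -0.35 to 0.16 for Axl, -0.94 to 0.031 for Trem2, -0.25 to 0.064 for Tyrobp, -0.45 to 0.21 for Fcgr3, -0.26 to 0.39 for Fcer1g, -0.40 to 0.47 for Ptprc, -0.44 to 0.016 for Laptm5, -0.46 to 0.015 for Ly86, -0.72 to 0.021 for Ctss, -0.45 to 0.060 for Cd68, -0.073 to 0.13 for Cx3cl1, -0.17 to 0.65 for Spi1, -0.85 to 0.54 for Irf8, -0.20 to 0.18 for Runx1 and -0.46 to 0.53 for Lyz2. It held for the other 9, over ranges of -0.61 to -0.11 for Sall1, 0.080 to 0.20 for Lpl, -0.43 to -0.0077 for Csf1r, -0.62 to -0.0078 for Aif1, 0.034 to 0.34 for Cd53, 0.064 to 0.60 for Csf1, -0.42 to -0.20 for Il34, 0.0088 to 0.16 for Mertk and 0.45 to 1.80 for Mrc1. The cause was not tested. Depth limits Mrc1, Cst7, Fcrls, Gpr34, Fcer1g and Spi1, which fell to 3, 6, 8, 11, 13 and 14 counts in their lowest libraries. With no uninjured retina among the groups, activation by the injury itself was not measured.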
